A study of Rattus norvegicus with 12 samples.

Results

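Genes annotated with cilium morphogenesis were followed in cultured rat astrocytes during the first hours of exposure to the compound PT109B, of which the labels give a code name alone. Members were the genes whose Gene Ontology process annotation in the deposited table contains the term cilium morphogenesis and none of DNA repair, DNA replication or RNA splicing, leaving out symbols that begin with Kif, Plk or Cenp. There were 128 such genes of 9721 in the table. The term was held by 133 genes, and Kif3a, Kif3b, Plk4, Kif24 and Cenpj were left out by their symbol. The rule reads annotation and symbols. All 12 libraries came from wild-type primary astrocytes of the midbrain of newborn SD rats, grown in DMEM with fetal bovine serum. The control group had 0 h of exposure, and the treated groups had 1.5, 3 and 6 h of exposure to 10 µM PT109B, with 3 libraries in each of the 4 groups. Whether the 3 libraries of a group are separate cultures is not stated in the labels; p-values reflect library-to-library spread alone, and that spread may be technical. By its title, the study concerns conversion of astrocytes to dopaminergic neurons.

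The primary cilium is a single antenna-like extension of the cell surface, built on a basal body that derives from the mother centriole. Intraflagellar transport carries cargo along its axoneme, kinesin-2 outward and dynein-2 back, while the transition zone at its base and the BBSome, a coat-like complex, control which membrane proteins enter and leave. Astrocytes and other glia carry primary cilia, in which Hedgehog signals are received, and cells take the cilium down before they divide.

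Levels are given as CPM, read counts relative to library sizes scaled by TMM, and changes as log2 fold changes ± SE from a single edgeR quasi-likelihood fit over the 12 libraries. A gene was called when its p-value, adjusted by Benjamini-Hochberg over the 9491 genes tested, was below 0.05. Of the 128 members, 125 were tested. Dcdc2, Rsph6a and Pkhd1 failed the filter on low counts, with mean FPKM (per length and depth) of 0.039, 0.0608 and 0.0207. Over all members the median of the mean FPKM was 5.69, and the highest was 389.7 in Flna, which encodes the actin cross-linker filamin A.

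Library totals ran from 9368972 to 12498050 counts, of which members made up 1.13% to 1.69%. In each treated group, the library with the lowest mean correlation across genes with its own group was taken to stand apart. This rule names 1 library per group in any case, here 1.5 h replicate 3, 3 h replicate 3 and 6 h replicate 1. Their mean correlation was 0.911, 0.9508 and 0.9534 with their own group, and 0.976, 0.9627 and 0.9524 with the controls. The first 2 were thus closer to the controls than to their own group. Astrocyte markers were present in every library: 11 of 15 listed were in the table, their summed level ran from 7523 to 12990 CPM, none was at 0, and Gfap ran from 933.7 to 3295 CPM. Markers of other cells moved between libraries. All 17 microglia markers summed to 2668 to 3265 CPM in controls, 334.2, 334.3 and 3455 at 1.5 h and 2068 to 2998 later, with none at 0. All 25 mitosis genes summed to 1996 to 2785 CPM in controls, 1902 to 2390 at 1.5 h, 237.2, 208.2 and 1565 at 3 h, and 1503, 188.9 and 209.6 at 6 h. All 10 fibroblast and meningeal markers summed to 4630 to 6258 CPM in controls, 13210, 13680 and 4783 at 1.5 h, 12210, 11990 and 5356 at 3 h, and 4757, 9211 and 8827 at 6 h. In such bulk samples fewer cells of a type and less RNA per cell cannot be told apart.

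Cilium members shifted toward lower levels from 3 h on, while no member was called at 1.5 h. At 3 h 19 members fell and 9 rose, or 15.2% and 7.2% of the 125 tested, where 7.94% of all genes tested were called lower and 13.5% higher. At 6 h 34 fell and 16 rose, or 27.2% and 12.8%, against 11.8% lower and 18.7% higher over all genes tested. Among all genes more were called higher than lower at both times, and among members more were called lower. The median log2 fold change of the members was -0.17 at 3 h and -0.26 at 6 h, beside -0.03 and -0.02 over all genes. The 3 comparisons share the control libraries. In all, 53 members were called against control at some time and 72 were not. Of the 35 that fell, 18 were called at both 3 and 6 h, 16 at 6 h only and 1, Ocrl, at 3 h only. Of the 18 that rose, 7 were called at both times, 9 at 6 h only and 2, Abcc4 and Celsr2, at 3 h only.

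**Figure D1:**
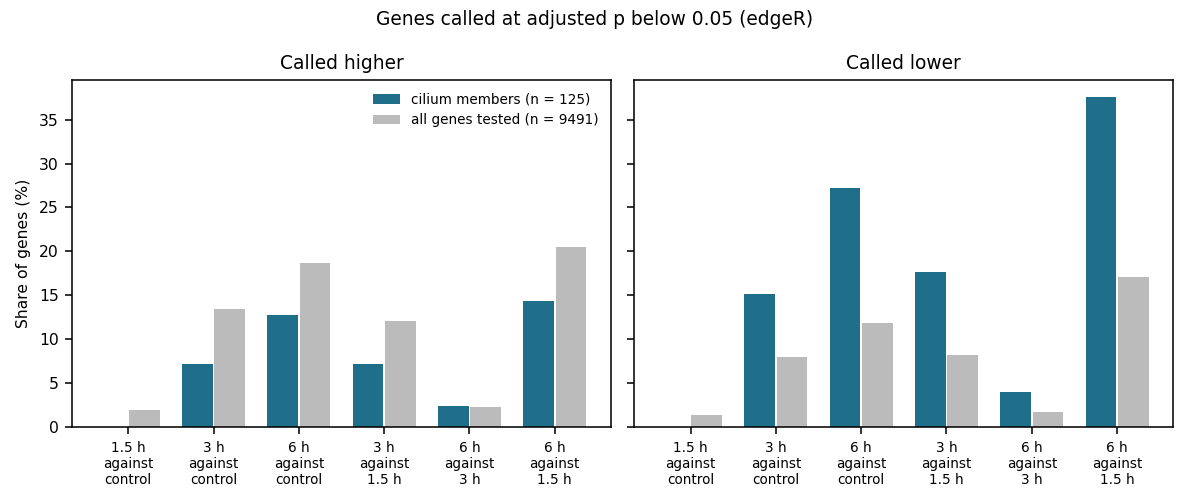
Share of genes (%) called higher (left) and lower (right) by edgeR at adjusted p below 0.05 in each of the 6 comparisons, for the 125 cilium members tested (blue-green bars) and all 9491 genes tested (grey bars). At 6 h against control 27.2% of members and 11.8% of all genes were called lower, and 12.8% and 18.7% were called higher.

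Scaling moved the split of the calls. With library totals alone as scaling, the median of all genes shifted to -0.34 at 3 h and -0.24 at 6 h, and the members' calls became 3 higher and 38 lower at 3 h and 8 higher and 46 lower at 6 h. With depth read from the ratio of count to FPKM the members' calls were 3 higher and 35 lower at 3 h, and 9 higher and 45 lower at 6 h. The median of all genes was then -0.31 at 3 h and -0.22 at 6 h. Shares of all genes called under these scalings are not given here, so the splits describe the members only. With totals all 19 and 34 members called lower in the TMM fit kept their call, while 3 of 9 called higher at 3 h (Fhdc1, Lama5 and Tmem250) and 8 of 16 at 6 h (Fhdc1, Mak, Mks1, Lama5, Ttc39c, Bbs4, Snx10 and Tmem250) kept it. The 6 h rises of E2f4, Ptpn23, Tmem231, Ccdc66, Dzip1l, Cdc14a, Ehd3 and Cfap53 kept their sign and lost their call. The members' own median lay below that of all genes under both scalings, at -0.48 and -0.45 at 3 h and -0.47 and -0.44 at 6 h.

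The 3 h count rested on few libraries. Leaving out 1 control library or 3 h replicate 1 or 2 left 10 to 15 members called, and leaving out 3 h replicate 3 raised the count to 46. The 6 h count stayed between 36 and 60 when any 1 library was left out. Without the 3 treated libraries that stood apart, 21 members were called higher and 65 lower at 3 h, and 24 higher and 78 lower at 6 h. The median of all genes was then -0.13 at 3 h and -0.15 at 6 h. Shares of all genes called in these runs are not given here, so the counts describe the members only.

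At the level of single libraries the 34 members called lower at 6 h lay below every control library in 34 of 34 cases in each 6 h library. The mitosis genes summed to 1503 CPM in 6 h replicate 1 and to 188.9 and 209.6 CPM in 6 h replicates 2 and 3. The part of dividing cells in these members' levels was not tested. In the 3 h libraries 27, 29 and 30 of the 34 lay below all controls, and in the 1.5 h libraries 10, 9 and 9 did. Of all genes tested, 45.8%, 45.9% and 36% lay below all controls in the 3 h libraries, and 41.8%, 41% and 33.5% in the 1.5 h libraries. The 16 members called higher lay above every control in all 3 of the 6 h libraries, in 11 or 12 cases at 3 h and in 4 to 7 at 1.5 h. Above all controls lay 41.2%, 40.8% and 35.9% of all genes tested in the 3 h libraries, and 40.6%, 40.5% and 30% in the 1.5 h libraries. The counts of called members describe those members only. Their 6 h counts follow from their choice. Their 1.5 and 3 h counts are set against the same control libraries that the choice used. Groups without overlap, as named below for single genes, were common among all genes tested. At 1.5 h 15.1% of all genes had all libraries below all controls and 12.9% had all above. These shares were 24.3% and 23.4% at 3 h, and 27.5% and 28.2% at 6 h.

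**Figure D2:**
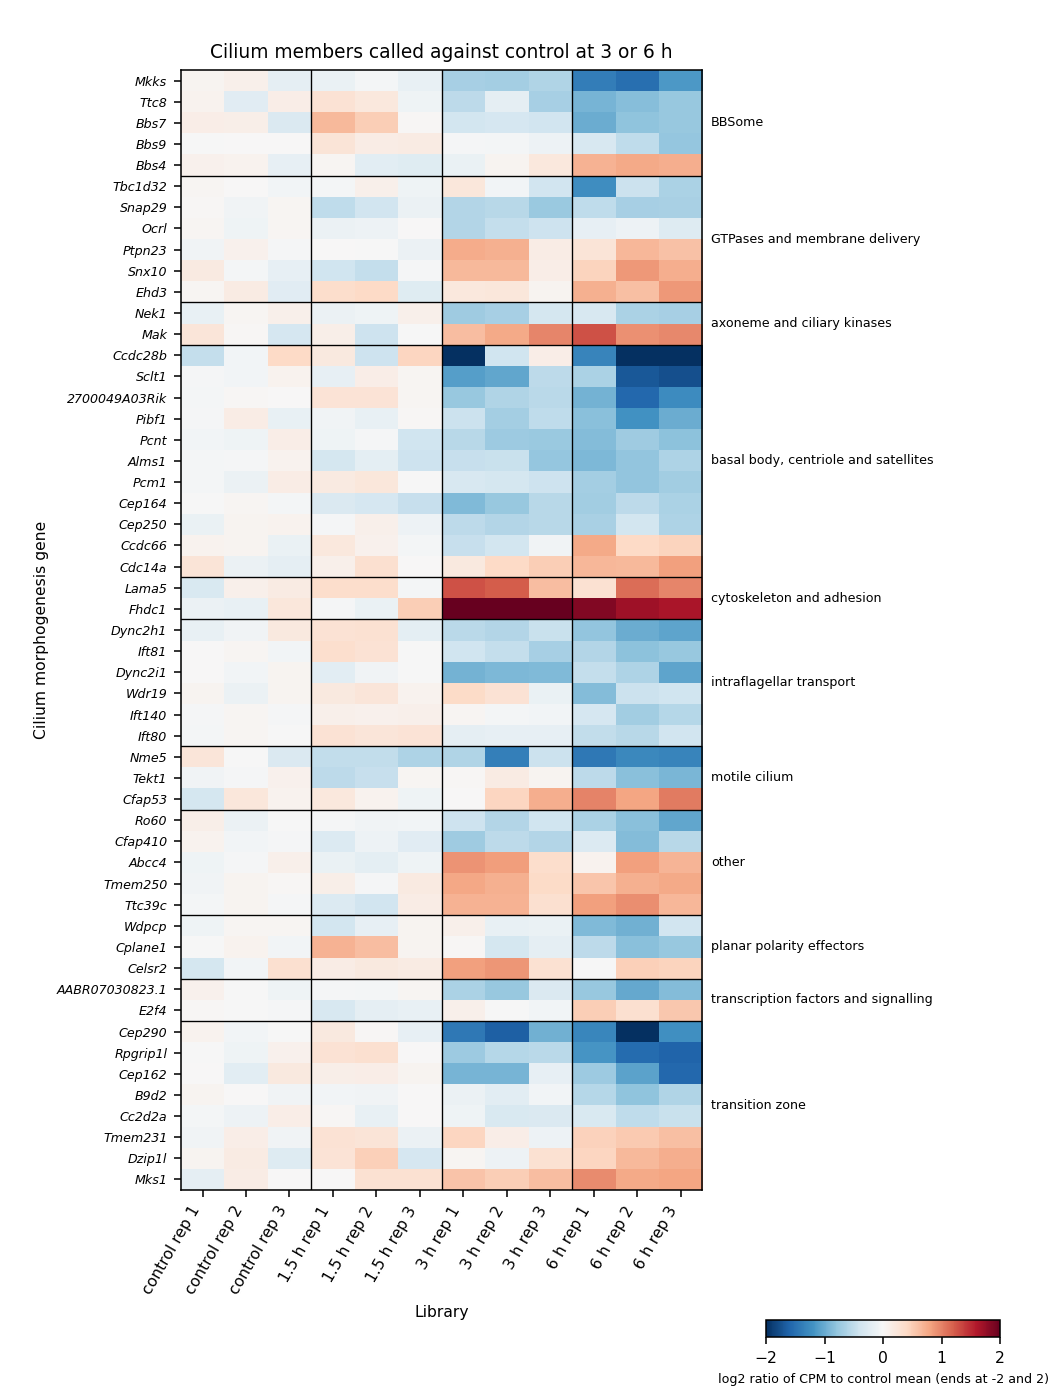
Each cell shows the log2 ratio of a library's CPM to the control mean (0.5 CPM added to both) for the 53 cilium members called at 3 or 6 h against control, in rows grouped by role, with the 12 libraries in columns. Colour ends at -2 (blue) and 2 (red); the 1.5 h columns are pale for most rows, Fhdc1 is dark red in all 3 and 6 h libraries, and Rpgrip1l, Mkks and Cep290 are blue in all of them.

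Intraflagellar transport genes fell and none was called higher: 3 of 12 were lower at 3 h and 6 of 12 at 6 h, with a median log2 fold change of -0.25 and -0.54. The shares lower were 25% and 50%, where 7.94% and 11.8% of all genes were lower. The retrograde motor was among the genes that fell. Dync2h1, the heavy chain of dynein-2, had 79.0, 83.2 and 99.98 CPM in the control libraries, 107, 108 and 76.4 at 1.5 h, 59.9, 58.3 and 64.2 at 3 h, and 50.2, 43.8 and 41.7 at 6 h. All 3 and 6 h libraries lay below all controls, and the change was -0.52 ± 0.15 at 3 h (adjusted p = 0.0338) and -0.95 ± 0.15 at 6 h (adjusted p = 0.00138). The 3 h call of Dync2h1 was lost when any 1 control library or 3 h replicate 1 or 2 was left out, and with the replicate number as a block. Dync2i1, an intermediate chain of dynein-2, had 20.2, 19.4 and 20.9 CPM in controls, 17.4, 19.2 and 20.0 at 1.5 h, 10.2, 10.6 and 10.7 at 3 h, and 14.4, 12.9 and 9.49 at 6 h. Its level was lower by 3 h without overlap with the controls (-0.94 ± 0.17, adjusted p = 0.00396) and at 6 h the change was -0.72 ± 0.17 (adjusted p = 0.00967).

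Subunits of the transport complexes were called at different times. Ift140, of the IFT-A complex that serves return transport, had 91.9, 95.6 and 91.6 CPM in controls and 96, 90.6 and 90.0 at 3 h, so that these groups overlapped. At 6 h it had 73.6, 57.1 and 62.5 CPM, below all other libraries of the series, a change of -0.53 ± 0.10 against control (adjusted p = 0.0038). Wdr19, another IFT-A subunit, had 55.0, 48.3 and 54.8 CPM in controls, 68.7, 64.6 and 47.8 at 3 h and 28.8, 38.8 and 39.7 at 6 h, with a change of -0.56 ± 0.16 at 6 h (adjusted p = 0.0256). Of the IFT-B complex, which serves outward transport, Ift81 had 45.7 to 49.0 CPM in controls, 35.9, 34.1 and 29.9 at 3 h and 31.4, 26.6 and 27.8 at 6 h. It was lower at both times, by -0.51 ± 0.13 (adjusted p = 0.0205) and -0.73 ± 0.13 (adjusted p = 0.00224), and its 3 h call was lost without control replicate 1 or 2. Ift80 was lower at 6 h (-0.48 ± 0.09, adjusted p = 0.0033). Ift20, Ift43, Ift74, Cluap1, Traf3ip1 and Wdr35 were not called, with 6 h log2 fold changes from -0.60 in Ift74 to 0.49 in Cluap1.

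The BBSome group split at 6 h, with 4 of 7 lower, 1 higher and a median of -0.53, after 1 call at 3 h. At 6 h 57.1% were lower and 14.3% higher, beside 11.8% and 18.7% of all genes. Mkks, a chaperonin-like protein that helps to assemble the BBSome, had 16.8, 17.4 and 14.3 CPM in controls, 14.7, 15.6 and 14.5 at 1.5 h, 10.0, 9.90 and 10.4 at 3 h, and 5.91, 5.34 and 6.97 at 6 h. The 3 and 6 h libraries did not overlap with the controls or with each other. The change was -0.67 ± 0.16 at 3 h (adjusted p = 0.0183) and -1.41 ± 0.17 at 6 h (adjusted p = 0.000293). The 6 h call of Mkks held under every alternative run, while the 3 h call was lost without control replicate 1 or 2 or 3 h replicate 1 or 2.

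At 6 h Ttc8, Bbs7 and Bbs9 were lower and Bbs4 was higher. Ttc8, a BBSome subunit, had 28.7 to 36.8 CPM in controls and 17.4, 18.5 and 19.7 at 6 h (-0.86 ± 0.17, adjusted p = 0.00356). Bbs7 had 31.0 to 41.9 CPM in controls and 19.0, 21.7 and 22.4 at 6 h (-0.86 ± 0.18, adjusted p = 0.00478), and Bbs9 fell by 0.53 on the log2 scale (SE 0.13, adjusted p = 0.013). Bbs4, the subunit that binds centriolar satellites, had 26.4, 26.0 and 22.1 CPM in controls, 25.5, 21.3 and 20.8 at 1.5 h, 22.7, 25.7 and 28.8 at 3 h, and 40.6, 42.1 and 41.5 at 6 h. All 6 h libraries of Bbs4 lay above all other libraries (0.74 ± 0.13 against control, adjusted p = 0.00271). Bbs2 and Arl6, the GTPase that recruits the BBSome to membranes, were not called against control, with 6 h values of -0.20 and -0.35.

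Transition zone genes were called both ways. At 3 h 2 of 13 were lower (15.4%) and 1 higher (7.69%), beside 7.94% and 13.5% of all genes. At 6 h 5 were lower (38.5%) and 3 higher (23.1%), beside 11.8% and 18.7% of all genes. The share higher at 6 h was thus near that of all genes. Rpgrip1l, a scaffold of the transition zone, had 28.2, 26.7 and 30.0 CPM in controls, 34.7, 35.6 and 28.5 at 1.5 h, 16.9, 18.8 and 19.2 at 3 h, and 12.2, 9.44 and 9.03 at 6 h. Its groups at 3 and 6 h overlapped neither with the controls nor with each other. Its change was -0.63 ± 0.15 at 3 h (adjusted p = 0.0184) and -1.46 ± 0.16 at 6 h (adjusted p = 0.000191). Cep290, which links axonemal microtubules to the membrane in the transition zone, had 18.8, 17.1 and 17.7 CPM in controls, 20.4, 18.2 and 15.9 at 1.5 h, 6.29, 5.39 and 8.89 at 3 h, and 6.93, 4.0 and 7.32 at 6 h. It had reached its low level by 3 h (-1.38 ± 0.26, adjusted p = 0.005) and was at -1.55 ± 0.26 at 6 h (adjusted p = 0.00176). Both calls of Cep290 and the 6 h call of Rpgrip1l held under every alternative run. The 3 h call of Rpgrip1l was lost without control replicate 1 or 3 or 3 h replicate 1 or 2.

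Other genes of the transition zone changed at 6 h. Cep162, an axoneme-binding protein that promotes its assembly, had 14.4 to 19.3 CPM in controls and 9.93, 7.80 and 5.37 at 6 h (-1.12 ± 0.27, adjusted p = 0.0115), and B9d2 and Cc2d2a were lower by -0.69 ± 0.15 (adjusted p = 0.00786) and -0.42 ± 0.13 (adjusted p = 0.0315). Mks1, a B9-domain protein of the same membrane complex as B9d2, had 10.1, 12.7 and 11.5 CPM in controls, 11.6, 14.3 and 14.2 at 1.5 h, 17.3, 16.3 and 17.8 at 3 h, and 22.6, 19.8 and 20.2 at 6 h. Mks1 was thus above all controls at both later times, by 0.58 ± 0.15 (adjusted p = 0.0251) and 0.87 ± 0.15 (adjusted p = 0.00235). Its 6 h call held under every alternative, and its 3 h call was lost under 9 of them, among them scaling by totals and leaving out control replicate 1 or 3 or any 3 h library. Tmem231, a membrane protein of the same complex, and Dzip1l rose at 6 h by 0.54 ± 0.18 (adjusted p = 0.0424) and 0.61 ± 0.21 (adjusted p = 0.0474). Cibar1, Cibar2, Dzip1, Tmem107 and Tmem216 were not called at 3 or 6 h.

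Basal body, centriole and satellite genes were the largest role, with 29 tested members. None was higher and 7 were lower (24.1%) at 3 h, where 13.5% of all genes were higher and 7.94% lower. At 6 h 2 were higher (6.9%) and 9 lower (31%), beside 18.7% and 11.8% of all genes. The fold change was below 0 in 26 of 29 at both times, with medians of -0.46 and -0.46. Pcm1, the scaffold of centriolar satellites, had 218, 208 and 249 CPM in controls, 256, 262 and 225 at 1.5 h, 179, 176 and 169 at 3 h and 141, 129 and 138 at 6 h. The 3 later groups of Pcm1 did not overlap with each other, and the change was -0.36 ± 0.11 at 3 h (adjusted p = 0.0348) and -0.72 ± 0.11 at 6 h (adjusted p = 0.000859). The 3 h call of Pcm1 was lost without any 1 control library or 3 h replicate 1 or 2, with the replicate block, and in a fit of the 2 groups only.

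Of pericentriolar and appendage proteins, Pcnt, Cep164 and Sclt1 were called lower, while the appendage proteins Cep83, Cep89 and Fbf1 were not called at 3 or 6 h. Pcnt, which anchors the pericentriolar material, had 37.7, 36.8 and 42.9 CPM in controls, 36.6, 38.5 and 29.7 at 1.5 h, 26.4, 23.3 and 23.1 at 3 h, and 21.3, 23.6 and 21.9 at 6 h, with changes of -0.69 ± 0.13 (adjusted p = 0.00562) and -0.81 ± 0.13 (adjusted p = 0.00151). Cep164, a distal appendage protein that docks the mother centriole to membrane, had 89.8, 92.6 and 87.0 CPM in controls and 73.7, 71.0 and 65.0 at 1.5 h. It had 48.7, 52.9 and 61.0 at 3 h, and 55.0, 62.2 and 57.6 at 6 h. All treated libraries of Cep164 lay below all controls, although the 1.5 h change of -0.36 ± 0.11 was not called (adjusted p = 0.104). Of all genes tested, 15.1% had all 1.5 h libraries below all controls. Its later changes were -0.73 ± 0.11 (adjusted p = 0.0014) and -0.62 ± 0.11 (adjusted p = 0.00212). Sclt1, another distal appendage protein, had 10.1 to 11 CPM in controls and 6.59, 2.87 and 2.74 at 6 h (-1.35 ± 0.34, adjusted p = 0.0133), a call lost without 6 h replicate 2 or 3.

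The satellite and centriole genes Pibf1, Alms1, Cep250 and the row 2700049A03Rik were lower at both times. The 3 h call of Pibf1 was lost without control replicate 1 or 2 or 3 h replicate 1 or 2, and that of 2700049A03Rik without any 1 control library or 3 h replicate 1 or 2. Pibf1 had 28.6 to 35.6 CPM in controls, 23.5, 19.7 and 22.4 at 3 h and 17.6, 13.4 and 15.8 at 6 h (-1.03 ± 0.15 at 6 h, adjusted p = 0.000695). The row 2700049A03Rik, described in the table as similar to KIAA0586, a centriolar protein, had 27.0 to 28.4 CPM in controls, 33.8, 33.8 and 28.7 at 1.5 h, 16.2, 18.2 and 18.9 at 3 h and 14.2, 9.03 and 11.3 at 6 h (-1.27 ± 0.17 at 6 h, adjusted p = 0.000522). Its 1.5 h libraries were all above, and its later libraries all below, the controls. Ccdc28b had the most negative fitted value at 6 h (-2.91 ± 0.96, adjusted p = 0.0418) but was near the limit of detection, at 1.63, 2.36 and 3.43 CPM in controls and 0.685, 0 and 0.229 at 6 h. Its call was lost under 6 alternatives: the replicate block, any 1 control library left out, and 6 h replicate 2 or 3 left out. The 2 members of this role that rose were Ccdc66, a satellite protein (0.55 ± 0.16, adjusted p = 0.0257), and Cdc14a, a phosphatase (0.73 ± 0.16, adjusted p = 0.00689), both at 6 h. Ofd1, Cep131, Ttbk2, C2cd3 and Cep83, all known in centriole-to-cilium conversion, were not called, with 6 h values from -0.59 in Ttbk2 to -0.18 in Ofd1.

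**Figure D3:**
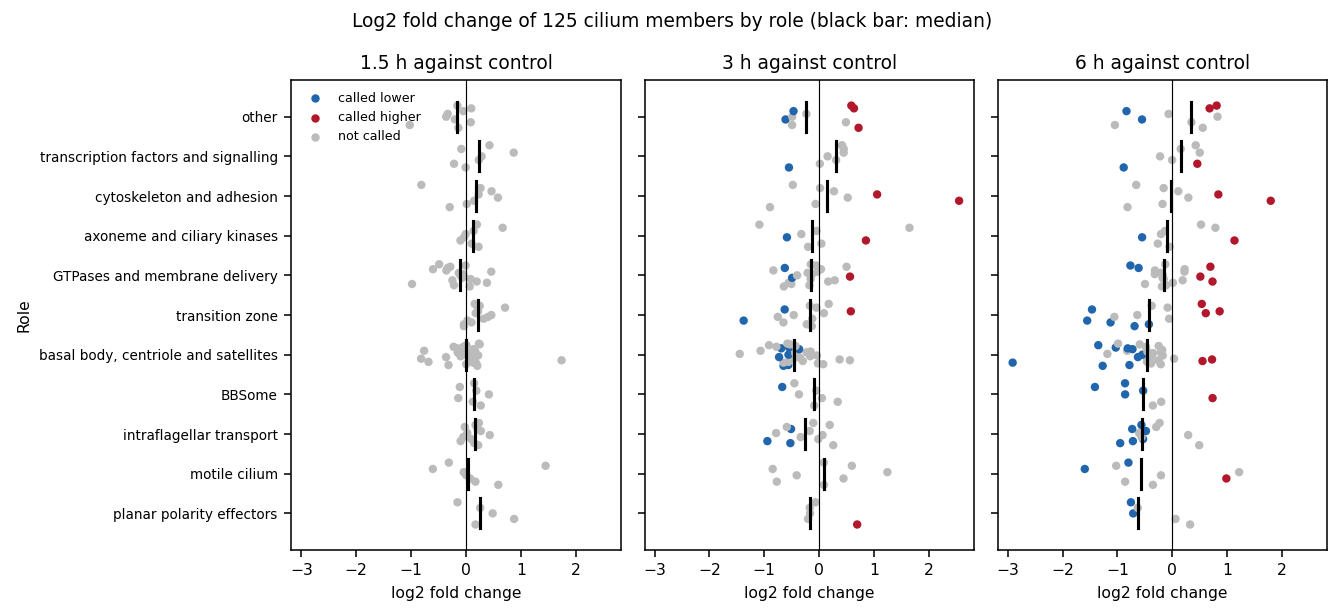
Log2 fold change against control (horizontal axis) of the 125 cilium members tested at 1.5, 3 and 6 h (panels), by role (vertical axis, ordered by the 6 h median), with called members in blue (lower) or red (higher), others in grey, and a black bar at each role's median. No point is coloured at 1.5 h, and at 6 h the medians of intraflagellar transport (-0.54), BBSome (-0.53) and basal body genes (-0.46) lie to the left of 0.

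Of 19 genes of membrane delivery, 3 were higher (15.8%) and 2 lower (10.5%) at 6 h, near the 18.7% and 11.8% of all genes, with a median of -0.15. Snap29, a SNARE protein of membrane fusion, had 100.2, 93.9 and 101 CPM in controls, 69.1, 75.1 and 90.3 at 1.5 h, 65.7, 67.2 and 58.8 at 3 h and 68.7, 61.9 and 62.6 at 6 h (-0.61 ± 0.12 at 6 h, adjusted p = 0.00336), below all controls in every treated library. Ehd3, a membrane-shaping ATPase, Snx10, a sorting nexin, and Ptpn23, an ESCRT-associated phosphatase, rose at 6 h by 0.74 ± 0.17 (adjusted p = 0.00947), 0.70 ± 0.18 (adjusted p = 0.0167) and 0.51 ± 0.16 (adjusted p = 0.0345). The related Ehd1 had 498, 499 and 596 CPM in controls, 118, 122 and 566 at 1.5 h, 323, 326 and 473 at 3 h and 438, 356 and 335 at 6 h, and was called at no time. The 1.5 h libraries low in Ehd1 are those in which microglia markers summed to 334.2 and 334.3 CPM, against 3455 in the third; the part of these cells in its level was not tested. Arl13b, a GTPase of the ciliary membrane often used to stain cilia, had 16.6 to 22.5 CPM in controls, 9.54, 8.80 and 19.9 at 3 h and 26.8, 12.7 and 12.8 at 6 h, and was not called. Its low libraries are the 4 in which the mitosis genes summed to 188.9 to 237.2 CPM; the part of dividing cells was not tested.

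The largest rise of any member was that of Fhdc1, a formin that acts on actin and microtubules. Fhdc1 had 6.59, 6.43 and 8.45 CPM in controls, 7.04, 6.51 and 10.3 at 1.5 h, 31.8, 40.9 and 53.5 at 3 h, and 27.1, 24.3 and 23.2 at 6 h. All 3 and 6 h libraries lay above all earlier ones, by 2.56 ± 0.24 at 3 h (adjusted p = 0.000103) and 1.80 ± 0.24 at 6 h (adjusted p = 0.000485), and both calls held under every alternative. Mak, a kinase that restrains ciliary length, had 5.65, 4.79 and 3.61 CPM in controls, 7.47, 8.25 and 9.71 at 3 h and 12.1, 9.24 and 9.6 at 6 h. Its 6 h rise of 1.14 ± 0.26 (adjusted p = 0.00803) held under every alternative, and its 3 h rise of 0.86 ± 0.26 (adjusted p = 0.0379) was lost under 13 of 17. Nek1, a kinase of centrosomes and cilia, was lower at both times (-0.59 ± 0.17 at 3 h, adjusted p = 0.0325).

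Some risen members of the adhesion and surface groups were uneven between libraries. Lama5, a laminin chain of the extracellular matrix, had 240.1, 319 and 335 CPM in controls, 719, 687 and 457 at 3 h and 369, 649.6 and 584 at 6 h (1.06 ± 0.25 at 3 h, adjusted p = 0.0153; 0.84 ± 0.25 at 6 h, adjusted p = 0.0267). Abcc4, an efflux transporter, had 205 to 233 CPM in controls, 407, 391 and 278 at 3 h and 228, 385 and 349 at 6 h (0.72 ± 0.20 at 3 h, adjusted p = 0.0279). Celsr2, a planar polarity cadherin, had 123, 151 and 195 CPM in controls and 277, 289 and 194 at 3 h (0.70 ± 0.20, adjusted p = 0.0354), overlapping with the controls. For all 3 genes the lower treated libraries were 3 h replicate 3 and, at 6 h, replicate 1. In these 2 libraries the fibroblast and meningeal markers summed to 5356 and 4757 CPM, against 8827 to 12210 in the other 3 and 6 h libraries; their part in these rises was not tested. Filamin A (Flna) had 3972, 4486 and 2775 CPM in controls, 6823, 7164 and 2852 at 1.5 h and 3068 to 6715 later, and was called at no time. Calls of Lama5, Abcc4 and Celsr2 were each lost without control replicate 1 and without some treated libraries (3 h replicates 1 and 2 for the 3 h calls, and 6 h replicates 2 and 3 for the 6 h call of Lama5), and those of Abcc4 and Celsr2 also with scaling by totals.

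**Figure D4:**
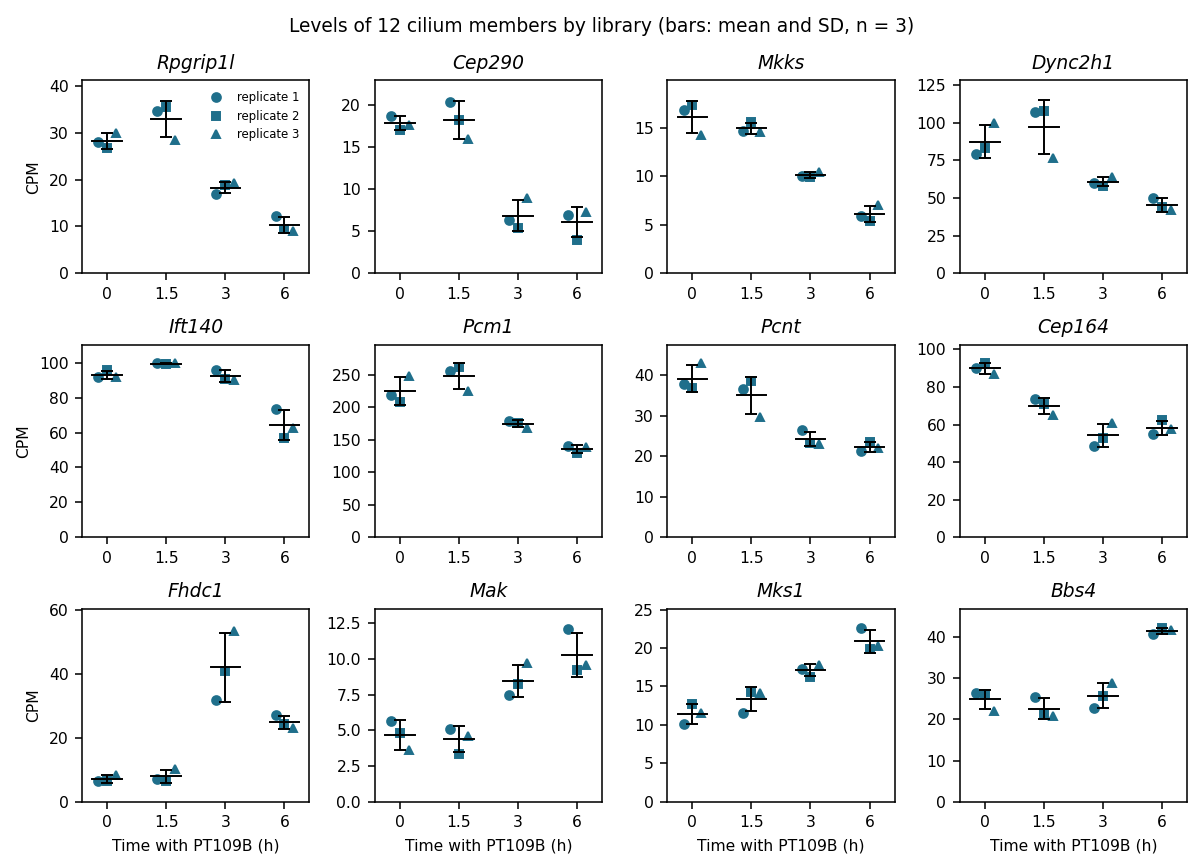
CPM (vertical axes, from 0) of 12 cilium members against time with PT109B (0, 1.5, 3 and 6 h), with a symbol for each replicate and black bars for mean and SD (n = 3). Rpgrip1l, Mkks and Pcm1 step down from 3 to 6 h, Cep290 is already low at 3 h, Ift140 is low at 6 h alone, Fhdc1 is highest at 3 h, and Bbs4 is raised at 6 h alone.

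Planar polarity effectors, which orient basal bodies, had 2 of 5 members lower at 6 h (40%), where 11.8% of all genes were. Cplane1 had 43.0 to 46.8 CPM in controls, 73.1, 68.8 and 46.3 at 1.5 h, 45.4, 35.1 and 39.2 at 3 h and 30.8, 24.9 and 26.2 at 6 h (-0.71 ± 0.18 at 6 h, adjusted p = 0.0123), and Wdpcp was lower by -0.75 ± 0.21 (adjusted p = 0.0213). Of 8 members known from motile cilia, Nme5 and Tekt1 fell (25%) and Cfap53 rose (12.5%) at 6 h, beside 11.8% and 18.7% of all genes. Nme5 had 3.78 to 5.74 CPM in controls and 1.46, 1.64 and 1.6 at 6 h (-1.59 ± 0.35, adjusted p = 0.00658), and Cfap53 had 5.05 to 7.86 CPM in controls and 13.6, 11.8 and 14.1 at 6 h (0.99 ± 0.25, adjusted p = 0.0128). Tekt1 had 9.50 to 10.6 CPM in controls and 6.76, 5.34 and 5.03 at 6 h (-0.80 ± 0.22, adjusted p = 0.0206), a call lost when any 1 control library or 6 h replicate 2 or 3 was left out. Of 22 listed markers of multiciliated ependymal cells, 6 were found by symbol. They summed to 42.1 to 49.7 CPM in controls and 53.6, 35.7 and 32.5 at 6 h. In 6 h replicate 2, 1 of the 6 was at 0. The sum leaves out the row AABR07030823.1, described as forkhead box J1, a listed marker, because it carries another symbol. That row alone was above the sum in controls and lay below all controls in every 3 h and 6 h library, as given below.

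Among transcription factors of the group, the row AABR07030823.1, described in the table as forkhead box J1, a regulator of motile cilium genes, had 68.3, 64.0 and 60.6 CPM in controls, 63.2, 62.9 and 66.4 at 1.5 h, 41.4, 37.9 and 52.5 at 3 h and 38, 31.5 and 35.0 at 6 h. It was lower at both times, by -0.55 ± 0.13 (adjusted p = 0.0174) and -0.88 ± 0.13 (adjusted p = 0.000986). E2f4, which also acts in multiciliated cells, rose at 6 h from 43.2 to 44.3 CPM in controls to 61.7, 54.9 and 63.9 (0.46 ± 0.10, adjusted p = 0.00729), a call lost also with limma on FPKM and without 6 h replicate 3. Rfx3, a factor that binds X-box motifs in cilium gene promoters, had 7.79, 8.86 and 8.54 CPM in controls and 17.4, 18.0 and 10.7 at 1.5 h, all above the controls. Its 1.5 h change was 0.87 ± 0.22 (adjusted p = 0.0575), the second smallest adjusted p of any member at that time after that of Cdc14b (-0.82 ± 0.20, adjusted p = 0.0509). The 1.5 h libraries highest in Rfx3 are those in which microglia markers summed to 334.2 and 334.3 CPM, against 3455 in replicate 3. Fibroblast and meningeal markers summed to 13210 and 13680 CPM there, against 4783 in replicate 3. The part of these cells in the level of Rfx3 was not tested. At 3 and 6 h Rfx3 had 10.3 to 13.4 CPM and was not called. Among remaining members the row Tmem250 rose at both times, from 68.0 to 73.6 CPM in controls to 104 to 121 at 6 h (0.68 ± 0.12, adjusted p = 0.00224), and Ro60, an RNA-binding protein, fell at both times (-0.83 ± 0.12 at 6 h, adjusted p = 0.000793).

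At 1.5 h 0 of 125 members passed edgeR's threshold, where 1.95% of all genes were called higher and 1.37% lower. At an unadjusted p below 0.05 there were 18 of 125 members, 10 higher and 8 lower, beside 2009 of all 9491 genes, 1076 higher and 933 lower. DESeq2 called 7, 5 higher and 2 lower. The smallest adjusted p-values are those of Cdc14b and Rfx3 above. Leaving out 1.5 h replicate 3 gave 18 calls, 8 higher and 10 lower. Tmem107, a transition zone membrane protein, had 15.2, 14.6 and 12.7 CPM in controls, 23.1, 29.8 and 16.7 at 1.5 h and 12.1 to 14.9 later (0.71 ± 0.20 at 1.5 h, adjusted p = 0.0908).

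Between treated groups, more members were called lower from 1.5 to 3 h than from 3 to 6 h; these 2 comparisons share the 3 h libraries. From 1.5 to 3 h 22 members fell and 9 rose, against 8.23% of all genes lower and 12.1% higher. In that comparison the call count was 1 in a fit of the 2 groups only, 7 without 1.5 h replicate 1 or 2, 11 or 12 without 3 h replicate 2 or 1, and 49 or 51 without replicate 3 of either group. With scaling by totals the split was 6 higher and 35 lower. From 3 to 6 h 5 members fell (Rpgrip1l, Wdr19, Mkks, Bbs2 and Ift140) and 3 rose (Bbs4, Ccdc66 and E2f4), where 1.72% of all genes were lower and 2.33% higher. None of those 8 remained with the 2 groups fitted alone, or without 3 h replicate 1 or 2 or 6 h replicate 2 or 3, and scaling by totals left 3 higher and 1 lower. From 1.5 to 6 h 47 members fell and 18 rose, against 17.1% lower and 20.5% higher over all genes. That count was 41 without 1.5 h replicate 1 and 38 without 1.5 h replicate 2, and its split was 10 higher and 54 lower with scaling by totals.

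Hedgehog signalling genes outside the group were read beside it from a list of 21, of which 12 were tested. At 3 h 4 of the 12 fell and none rose, and at 6 h 4 fell and 3 rose. The shares over all genes, to be set beside this and the lists that follow, were 7.94% lower and 13.5% higher at 3 h. At 6 h they were 11.8% lower and 18.7% higher. Gli3, a transcription factor of the pathway whose processing depends on the cilium, had 81.0, 83.7 and 96.2 CPM in controls, 56.1, 65.4 and 61.6 at 3 h and 47.3, 58.6 and 52.5 at 6 h (-0.72 ± 0.12 at 6 h, adjusted p = 0.00172). Cdon, a co-receptor, had 47.1 to 52.6 CPM in controls and 23.4 to 29.1 at 6 h (-0.91 ± 0.14, adjusted p = 0.000896). Disp1, which releases Hedgehog ligand from producing cells, had 25.9 to 28.1 CPM in controls, 22.7 to 30.2 at 3 h and 64.1, 72.2 and 78.6 at 6 h (1.40 ± 0.16, adjusted p = 0.00023). The receptor Ptch1, itself a target of the pathway, had 38.2 ± 5.09 CPM in controls and 36.1 ± 8.25 at 6 h (SD, n = 3) and was not called (adjusted p = 0.803). Gpr161, a ciliary receptor that restrains the pathway, was not called either (adjusted p = 0.943). In a list of 16 factors that act on cilium genes, of which 9 were found by symbol and tested, Rfx5 and E2f4 rose and Ascc1 fell at 6 h. None of the 9 was called at 3 h. The member row described as forkhead box J1, lower at 3 and 6 h, was not among the 9. In a list of 18 cilium disassembly genes, of which 12 were tested, 1 rose and 2 fell at 3 h, and 2 rose and 2 fell at 6 h. Of these Dynlt1, a dynein light chain, rose at 6 h (0.70 ± 0.15, adjusted p = 0.00728), and Nde1, a dynein regulator that limits ciliary length, fell (-0.77 ± 0.18, adjusted p = 0.00898). Aurka, a kinase that starts disassembly and a mitosis gene, was not called (-1.11 ± 0.59 at 6 h, adjusted p = 0.171).

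Members shared annotation that the rule did not use. The cellular component term centrosome was held by 51 of the 125 tested members, or 40.8%, and by 3.42% of all genes tested. Of these 51, 22 fell and 6 rose at 6 h, with a median of -0.53. Over all 325 genes with that term, 82 fell and 40 rose, with a median of -0.35. The term ciliary basal body was held by 46 members, of which 14 fell and 5 rose at 6 h with a median of -0.38, beside 21 that fell and 13 that rose of all 86 genes with the term, with a median of -0.36. A component term that begins with cilium was held by 54 members, of which 15 fell and 8 rose with a median of -0.28. Of all 137 genes with such a term 32 fell and 23 rose, with a median of -0.19. Members are among the genes counted for each term.

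Called members included many long transcripts. Relative length was read from the ratio of count to FPKM, scaled so that the median of all genes tested is 1, and was available for 120 members. Members called lower had a median of 1.82 at 3 h and 1.28 at 6 h, against 1.07 over the 120. Members called higher had a median of 1.47 at 3 h and 1.04 at 6 h, and those not called 1.00 at both times. Over all genes called lower the medians were 1.24 and 1.17. Of the 30 members in the longest of 5 equal classes of all genes, 16 fell at 6 h (53.3%), among them Dync2h1 at 4.83, Alms1 at 3.94 and Pcnt at 3.62. Over all genes of that class 17.4% fell. In the shortest class 25% of 20 members fell, against 7.82% of all genes. In the 3 classes between, 13.3%, 25.9% and 14.3% of members fell, against 10.3%, 10.97% and 13.45% of all genes. Over all genes the share that fell thus rose with each class, from 7.82% to 17.4%. The share of all genes that rose was 15.6%, 19.9%, 22.85%, 19.5% and 18.3% from shortest to longest. Long members also rose, Lama5 at 4.08 among them. Across genes the rank correlation of length with the 6 h change was -0.02 over 120 members and -0.04 over 8886 genes. The signed change thus had little rank relation to length, while the share called lower rose with length over all genes. The size of the change without its sign was not set against length. Any part of length in the members' calls was not tested, and genes are not independent replicates.

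**Figure D5:**
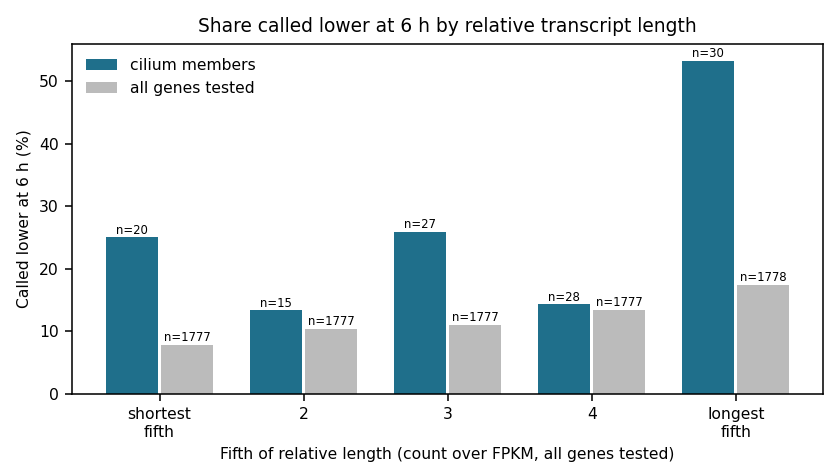
Share of genes called lower at 6 h (%) in 5 equal classes of relative transcript length (horizontal axis, shortest to longest), for cilium members (blue-green) and all genes tested (grey), with the number of genes above each bar. In the longest class 16 of 30 members (53.3%) and 17.4% of all genes were called lower.

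Promoter sequences of members were read, since factors that bind promoter motifs are known to set cilium gene transcription. RefSeq promoter entries on the rat build GRCr8 (250 bases before to 50 after a gene's start) were found by symbol for 108 of the 128 members. Searched on both strands were the X-box bound by RFX factors (arms GTNNCC and GGNAAC with NN or NNN between them), the arm GTTGCC, which the X-box can contain, the cyclic AMP response element TGACGTCA, the AP-1 site TGANTCA, and the E2F sites TTTCCCGC and TTTGGCGC. The first listed entry of each gene was used, and capitals mark any match. Among members named for their change that have an entry, Fhdc1, Rpgrip1l, Mkks, Pibf1, Cep164 and Pcnt had the smallest p-values against control in edgeR. Of these Cep164 held the arm GTTGCC on the other strand, at base 275, and the others held no match. Mkks, Pibf1, Cep164 and Pcnt are not printed. The members with the smallest p-values, Fhdc1 (risen, chr2:172125907-172126206, minus strand) and Rpgrip1l (fallen, chr19:31864981-31865280, plus strand), held no match in this window, and are shown 5′ to 3′ on the strand of the gene.
Fhdc1: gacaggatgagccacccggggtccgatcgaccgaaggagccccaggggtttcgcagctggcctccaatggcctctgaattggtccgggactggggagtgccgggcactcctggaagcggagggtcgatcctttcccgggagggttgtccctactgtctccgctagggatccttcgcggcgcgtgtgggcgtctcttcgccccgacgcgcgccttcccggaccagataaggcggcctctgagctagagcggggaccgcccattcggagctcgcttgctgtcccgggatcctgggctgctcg
Rpgrip1l: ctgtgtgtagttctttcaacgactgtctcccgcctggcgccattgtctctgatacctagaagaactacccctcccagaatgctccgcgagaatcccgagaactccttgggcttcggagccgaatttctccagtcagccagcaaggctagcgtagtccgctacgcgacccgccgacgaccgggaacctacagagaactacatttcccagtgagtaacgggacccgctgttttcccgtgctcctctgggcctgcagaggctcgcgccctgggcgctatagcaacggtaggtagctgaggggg

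The X-box was found in 12 of the 108 member promoters (11.1%) and in 1.59% of 27457 genes with an entry. Of the 14 members called higher at 6 h that have an entry, 3 held it, and of the 27 called lower, 1 did. These 4 promoters are shown with the X-box in capitals, chosen after the search: Mks1 (chr10:73152971-73153270, plus strand), Mak (chr17:23889241-23889540, plus strand) and Tmem231 (chr19:56813466-56813765, minus strand), which rose, and Ift140 (chr10:14537216-14537515, plus strand), which fell.
Mks1: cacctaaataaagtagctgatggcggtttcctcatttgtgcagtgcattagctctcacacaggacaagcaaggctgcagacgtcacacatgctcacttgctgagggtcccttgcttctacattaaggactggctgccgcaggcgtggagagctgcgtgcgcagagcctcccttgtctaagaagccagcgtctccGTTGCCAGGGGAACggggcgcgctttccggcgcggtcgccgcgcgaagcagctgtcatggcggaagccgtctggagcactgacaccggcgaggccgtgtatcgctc
Mak: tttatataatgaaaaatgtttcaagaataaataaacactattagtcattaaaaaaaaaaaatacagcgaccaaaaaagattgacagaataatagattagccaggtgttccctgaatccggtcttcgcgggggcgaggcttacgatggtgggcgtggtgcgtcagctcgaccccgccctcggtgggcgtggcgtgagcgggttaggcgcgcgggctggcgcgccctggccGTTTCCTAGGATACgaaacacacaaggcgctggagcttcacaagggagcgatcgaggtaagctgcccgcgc
Tmem231: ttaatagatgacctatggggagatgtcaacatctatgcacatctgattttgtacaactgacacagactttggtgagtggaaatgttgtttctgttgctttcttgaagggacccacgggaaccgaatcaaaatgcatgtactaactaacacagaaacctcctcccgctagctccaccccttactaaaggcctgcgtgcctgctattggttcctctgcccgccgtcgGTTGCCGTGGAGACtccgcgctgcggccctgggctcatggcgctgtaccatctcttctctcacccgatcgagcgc
Ift140: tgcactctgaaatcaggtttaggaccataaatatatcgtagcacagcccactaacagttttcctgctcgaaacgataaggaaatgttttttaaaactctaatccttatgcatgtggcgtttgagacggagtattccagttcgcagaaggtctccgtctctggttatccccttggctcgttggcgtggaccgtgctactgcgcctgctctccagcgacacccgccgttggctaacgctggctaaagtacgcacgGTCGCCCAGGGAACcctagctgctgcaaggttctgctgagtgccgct

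The match begins at base 195 of 300 in Mks1, 230 in Mak, 226 in Tmem231 and 254 in Ift140. The other 8 promoters with an X-box belong to Arl6, Armc9, Ccno, Cep83, Rilpl2, Tmem107, Tmem216 and Ubxn10, which were not called at 6 h. The arm GTTGCC was found in 25% of member promoters and 12.2% of all, the cyclic AMP response element in 2.78% and 1.91%, the AP-1 site in 2.78% and 7.33%, and the E2F sites in 1.85% and 1.53%. A match describes letters in this window and is not a measured binding site.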

How the data were processed

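RNA-seq values of 12 libraries, 3 per group, were analysed; per the labels' protocols, RNA was extracted with TRIzol and libraries were made with a NEBNext Ultra RNA kit. The deposited table holds an estimated count and an FPKM value for each gene and library, per the file headers. The submitters' processing notes name StringTie 2.2.1; for the aligner and the genome annotation, the tool or build is not given in the sources used here. Counts were rounded because 9.49% of them were not whole numbers; the tests had been planned for whole counts. The 9721 genes of the table are a part of the rat genes, kept by a rule that is not known, and every share refers to this table.

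Tests used edgeR 4.0.16 in R 4.3.3 (filterByExpr, TMM, robust quasi-likelihood fit, group as the only term, Benjamini-Hochberg over 9491 genes). The script was tested on simulated data. Alternatives were other scalings and filters, a replicate block, fits of 2 groups, DESeq2 1.42.0, limma 3.58.1 on log2 of FPKM plus 1 or 0.1, and leaving out libraries. The labels number the replicates but do not say that a number marks a shared culture. Deviations from group means of same-numbered libraries correlated above 0.1 in all 3 pairs for 1.5 h with control (0.25 to 0.49) and 3 h with 1.5 h (0.18 to 0.24). In no other comparison did all 3 pairs do so, and same-numbered pairs ran from -0.72 to 0.67. Differently numbered pairs also went both ways. They reached 0.35 for control replicate 2 with 1.5 h replicate 1 and 0.82 for 3 h replicate 3 with 6 h replicate 1. These correlations thus cannot settle whether a number marks a shared culture.

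Named were, per comparison with control, the 12 called members with the largest change and at least 2 CPM in the higher group, the members with the highest mean FPKM and the smallest p in each class of a role list finer than the 11 roles of the report (with IFT-A and IFT-B apart, for example, and some genes, such as Flna, placed otherwise), and a fixed set. Other named members were chosen after their values were seen. The members, roles and lists were chosen with earlier results of these data known. Whether the counting divided reads between overlapping or near-identical genes was not checked.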

Additional observations from a re-analysis of the deposited data

Results flagged for a closer look

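Levels differed between treated time points for 24 results of named genes (edgeR, adjusted over all genes tested, adjusted p of at most 0.0412). Many of these genes were named for their changes against control in the same 3 and 6 h libraries. The 24 results thus describe these genes only. Of all genes tested, 8.23% were called lower and 12.1% higher between 1.5 and 3 h. Between 3 and 6 h 1.72% were called lower and 2.33% higher. When the 2 groups compared were fitted alone, 1 member was called between 1.5 and 3 h and 0 between 3 and 6 h. Between 1.5 and 3 h, log2 fold changes were -1.40 in Cep290, -0.85 in 2700049A03Rik, -0.85 in Rpgrip1l, -0.85 in Dync2i1, -0.76 in Tmem107, -0.73 in Ift81, -0.68 in Dync2h1, -0.65 in Cplane1, -0.60 in Ttc8, -0.56 in Mkks, -0.53 in Pcnt, -0.50 in Pcm1, -0.48 in Pibf1 and -0.37 in Cep164. Over the same interval they were 0.54 in Tmem250, 0.83 in Lama5, 0.86 in Abcc4, 0.96 in Mak and 2.41 in Fhdc1. Tmem107 and Cplane1 were high at 1.5 h in 2 libraries and near the controls at 3 h.

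Between 3 and 6 h the changes were -0.84 in Rpgrip1l, -0.74 in Mkks, -0.52 in Ift140, 0.44 in E2f4 and 0.68 in Bbs4. Rpgrip1l and Mkks fell in both intervals. Bbs4 and Ift140, at like levels at 0, 1.5 and 3 h, moved in opposite directions in the last interval.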

How the results depend on the processing

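Of 47 called results of named genes, with 842 values under the alternatives, 740 stayed called in the same direction, 102 lost the call and 0 reversed, and 29 results were called under every alternative. Counts of members called moved by more than 1.5 times as follows, and the cause was not tested. Shares of all genes called under these alternatives are not given here. At 1.5 h (0 called) total-count scaling, depth from count and FPKM and a filter of 10 CPM in 3 libraries gave 1 each, DESeq2 gave 7, leaving out 1 library 0 to 18 and leaving out the 3 libraries that stood apart 54. At 3 h (28 called) limma with a pseudocount of 1 gave 44, leaving out 1 library 10 to 46, and leaving out the 3 libraries 86. At 6 h (50 called) leaving out the 3 libraries gave 102. Between 1.5 and 3 h (31 called) a fit of 2 groups gave 1, leaving out 1 library 7 to 51, and the 3 libraries 85. Between 3 and 6 h (8 called) total-count scaling, depth and limma with either pseudocount gave 4 each, the replicate block 1, a fit of 2 groups 0, DESeq2 20, leaving out 1 library 0 to 9, and the 3 libraries 41. Between 1.5 and 6 h (65 called) a fit of 2 groups gave 39, leaving out 1 library 38 to 72, and the 3 libraries 103. Within 1.5 times, leaving out 1 library at 6 h gave 36 to 60. With the replicate block the counts were 0, 24, 47, 24 and 59 in the other comparisons (1.5, 3 and 6 h against control, 3 h and 6 h against 1.5 h). Members at a few CPM, such as Ccdc28b, are limited by counting depth.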
